A study of Mus musculus with 8 samples.

Results

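Mitochondrial DNA of the mouse encodes 7 membrane subunits of respiratory complex I, named mt-Nd1, mt-Nd2, mt-Nd3, mt-Nd4, mt-Nd4l, mt-Nd5 and mt-Nd6, and these 7 genes are described here across young adult and aged brain. They were taken by name from a table of 22430 genes, in which all 7 were listed and all 7 passed the filter on low counts. RNA had been prepared from brain hemispheres of 8 male C57Bl/6JRj mice with no genetic or drug treatment, 4 of them young adults (6 months, 6m) and 4 aged (24 months, 24m), and each library came from its own animal. Polyadenylated RNA was sequenced with a directional kit as paired-end reads. The comparison of 24m with 6m asks how transcript levels differ in the aged brain. In bulk tissue, fewer cells of a type and less RNA per cell cannot be told apart.

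Complex I accepts electrons from NADH, passes them to ubiquinone and pumps protons across the inner mitochondrial membrane, and neurons depend heavily on it for ATP. Its matrix arm and many accessory subunits are made from nuclear genes, whereas the hydrophobic core of its membrane arm is made inside the organelle. Mitochondrial DNA is transcribed as long polycistronic RNAs from both strands, which are cut mostly at transfer RNAs and then polyadenylated. Each messenger RNA level therefore depends on transcription shared with its neighbours and on its own processing and turnover.

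On the assembly GRCm39, 6 of the 7 genes lie on the plus strand of chromosome M as given in the annotation. These are mt-Nd1 at chrM:2751-3707, mt-Nd2 at chrM:3914-4951, mt-Nd3 at chrM:9459-9806, mt-Nd4l at chrM:9877-10173, mt-Nd4 at chrM:10167-11544 and mt-Nd5 at chrM:11742-13565. The minus strand holds mt-Nd6 at chrM:13552-14070. Each gene is a single exon without introns, and the annotated lengths run from 297 bases for mt-Nd4l to 1824 bases for mt-Nd5. Adjacent members overlap at 2 places, which are shown because the ratios reported further on compare the genes on either side. The open reading frames of mt-Nd4l and mt-Nd4 share 7 bases, and mt-Nd5 and mt-Nd6 share 14 bases on opposite strands. The capitals mark the shared bases, read 5′ to 3′ on the plus strand at chrM:10156-10185 and chrM:13544-13573.
mt-Nd4l and mt-Nd4: aacctactacaATGCTAAaaattattcttc
mt-Nd5 and mt-Nd6: atactcaaTTAATCTCGAGTAAtctcgata

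In the first of these, the start codon ATG of mt-Nd4 comes before the stop codon TAA of mt-Nd4l, so both proteins are read from a single messenger RNA. The 3′ ends of mt-Nd4 and mt-Nd6 are shown because the libraries were selected on poly(A) tails. The annotated mt-Nd4 sequence ends in 1 base of a stop codon, in capitals, which the poly(A) tail is known to complete. The end of mt-Nd6, given on its own strand, carries a full stop codon, in capitals. Its human counterpart is known to carry little or no poly(A) tail.
mt-Nd4, chrM:11515-11544, plus strand: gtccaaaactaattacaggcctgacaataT
mt-Nd6, chrM:13552-13581, minus strand: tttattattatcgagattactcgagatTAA

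The base composition of mt-Nd6 on its own strand was 28.1% G and 5.97% C, the reverse of the other members, in which G was 8.00 to 11.6% and C 22.1 to 29.97%. Nuclear copies of mitochondrial DNA also bear on which reads could be placed. A minus-strand copy on chromosome 1 is identical to all 297 bases of mt-Nd4l (chr1:24651485-24651781), to 345 of the 348 bases of mt-Nd3 (chr1:24651853-24652197) and to the first 876 bases of mt-Nd4 (chr1:24650616-24651491). Of all windows as long as 1 read, 100% in mt-Nd4l, 98.5% in mt-Nd3 and 59.1% in mt-Nd4 occurred without mismatch in the nuclear genome. No such window was found in mt-Nd1, mt-Nd2, mt-Nd5 or mt-Nd6. How reads with several matches were counted is not given in the sources used here, so the values of mt-Nd4l, mt-Nd3 and mt-Nd4 carry that uncertainty. Outside complex I it also bears on mt-Co2, mt-Co3, mt-Atp6 and mt-Atp8 (100% of windows each) and on mt-Co1 (23.6%). Every share or fold change relative to the mitochondrially encoded total carries it as well, through that total.

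Library totals were 63460940 to 103462414 counts, the highest being 24m replicate 1. Scaling factors by the trimmed mean of M values (TMM), which set each library against the bulk of its genes, were 0.887 to 0.957 at 6m and 1.00 to 1.13 at 24m. In 24m replicate 1 the factor was 1.00, apart from the 1.09 to 1.13 of the other aged libraries, and 6m replicate 4 had the lowest level of its age for 6 of the 7 genes, mt-Nd3 being the exception. Marker genes of brain cells were detected in every library. Their levels, in counts scaled to a common library size (CPM) after TMM, were summed by cell type. The ages did not overlap for neurons (3397 to 3797 at 6m, 3854 to 3983 at 24m), astrocytes (393.8 to 446.9, 814.8 to 982.5), microglia (117.8 to 126.0, 151.2 to 178.3) or red blood cells (2911 to 4069, 663 to 2212), and they overlapped for oligodendrocytes (2555 to 3286, 2776 to 3223). By the test described below, 2 of 6 neuronal markers were called higher and 1 lower, 3 of 4 astrocyte, 1 of 4 oligodendrocyte and 2 of 4 microglial markers higher, and 3 of 3 red blood cell markers lower. Sums for endothelium (31.9 to 49.3 at 6m, 21.99 to 32.6 at 24m) and choroid plexus (1766 to 3186, 803 to 2237) overlapped, with Cldn5 called lower and Flt1 and Kl called higher. Markers of other tissues were scarce. The skeletal muscle sum was 20.8 to 23.2 at 6m and 10.3 to 14.4 at 24m (2 of 2 markers called lower), and the heart sum was 21.2 to 32.02 and 14.9 to 15.9 (1 of 2 called lower). Of the liver markers, Apoa1 was called lower (-0.83 on the log2 scale), while Alb was at 0 to 0.0424 with no difference in mean beyond its spread. Their part in the results was not tested.

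Relative to the bulk of genes, messenger RNA of mt-Nd1, mt-Nd2, mt-Nd3, mt-Nd4 and mt-Nd6 fell in the aged brain, to between 40.5 and 50.7% of the 6m level. The levels of mt-Nd4l and mt-Nd5, at 69.2 and 69.4% of the 6m level, overlapped between ages and did not pass the fold threshold. These falls rest on how gene length is handled: with a trend over length removed none of the 7 genes was called, mt-Nd3 and mt-Nd6 were at -0.28 and -0.17 on the log2 scale, and mt-Nd5 and mt-Nd4l were at 0.02 and 0.29. Together the 7 genes took 1.27, 1.26, 1.32 and 0.913% of all counts at 6m and 0.583, 0.769, 0.600 and 0.691% at 24m, in the order of replicates 1 to 4 that is kept throughout. The ages did not overlap in this share, and 6m replicate 4 lay nearest to the aged libraries.

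The values of single genes follow as TMM-scaled CPM. Each value rests on at least 23719 counts, and no member was near the limit of detection. The first 4 genes encode the part of the membrane arm next to the ubiquinone site. mt-Nd1, which forms part of the ubiquinone-binding cavity, was at 4490, 4247, 4464 and 3522 in 6m and at 1669, 1923, 1577 and 1599 in 24m. Its ages lay far apart, the lowest young library being above the highest aged one by more than the spread within either age. mt-Nd3, whose matrix loop closes over the ubiquinone site, was at 955, 770, 775 and 878 in 6m and at 399, 410, 396 and 377 in 24m. The aged libraries differed little among themselves (SD 13.8, n = 4), whereas the young ones were spread more widely (SD 88.9, n = 4).

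The light-strand gene mt-Nd6, whose product helps to link the ubiquinone site to the proton path, was at 877, 770, 801 and 532 in 6m and at 397, 412, 330 and 371 in 24m. Here 6m replicate 4 was the lowest young library but still stood above every aged one. mt-Nd4l, the smallest of the 7 subunits, was at 479, 513, 548 and 359 in 6m and at 262, 391, 292 and 369 in 24m. Its ages overlapped, since 24m replicates 2 and 4 were above 6m replicate 4.

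The remaining 3 genes encode the antiporter-like subunits, which are thought to carry the protons. mt-Nd2 was at 2112, 1952, 2117 and 1552 in 6m and at 911, 958, 727 and 794 in 24m, with no overlap. mt-Nd4 was at 3731, 3626, 3955 and 2630 in 6m and at 1489, 1979, 1492 and 1744 in 24m, also with no overlap. mt-Nd5, which forms the far tip of the membrane arm, was at 1251, 1234, 1281 and 824 in 6m and at 694, 923, 714 and 853 in 24m. Young replicates 1 to 3 were nearly equal, and replicate 4 lay among the aged libraries.

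**Figure D1:**
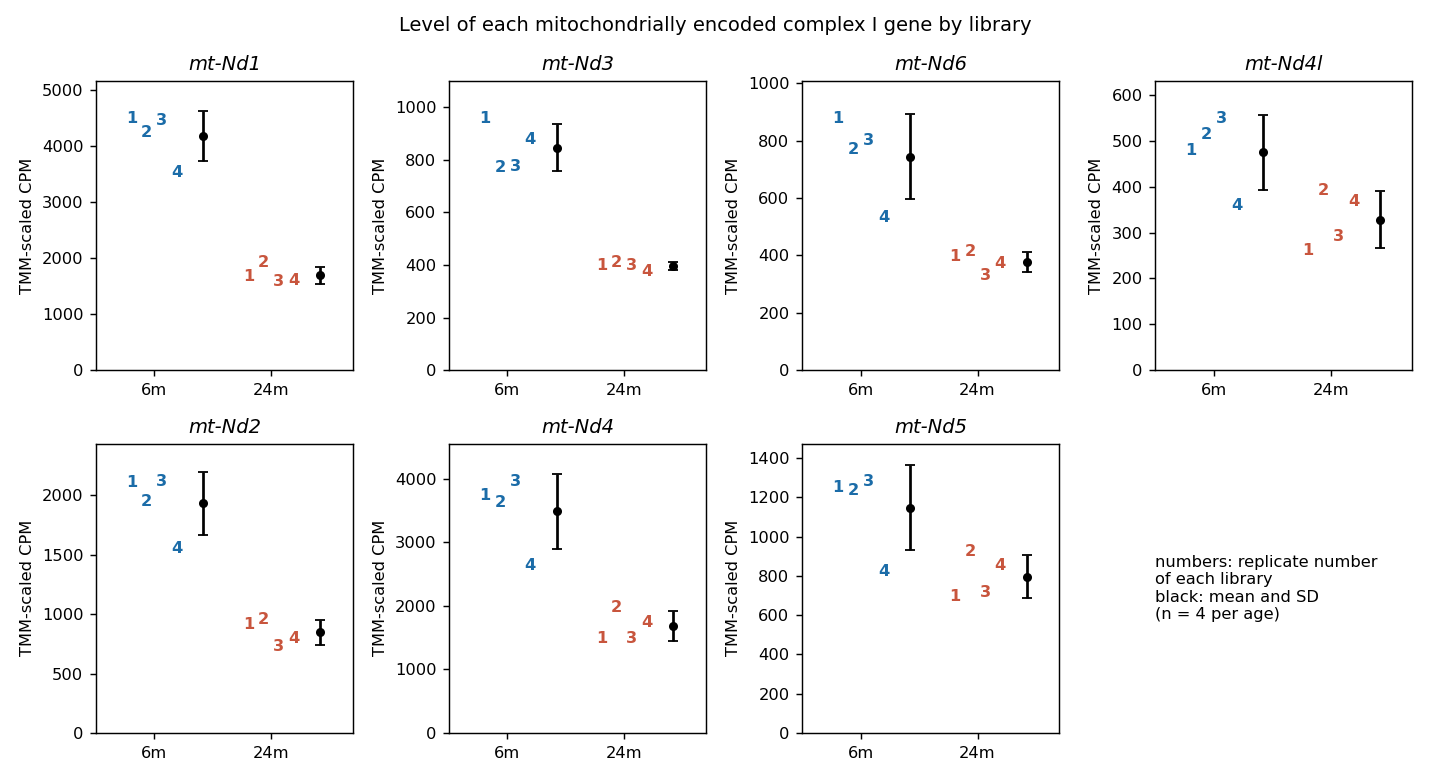
TMM-scaled CPM (vertical axes, each starting at 0) of the 7 genes in the 4 libraries of 6m and the 4 of 24m, each library drawn as its replicate number, with the mean and SD in black. The ages are apart for mt-Nd1, mt-Nd3, mt-Nd6, mt-Nd2 and mt-Nd4 and overlap for mt-Nd4l and mt-Nd5 through 6m replicate 4.

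Differences between ages were tested with the quasi-likelihood test of edgeR over 16730 genes, with Benjamini-Hochberg adjustment (padj). A gene was called at padj ≤ 0.05 and an absolute log2 fold change (log2FC) of at least 0.58. By this rule 18.3% of all genes tested were called lower and 25.3% higher at 24m. Of the 7 genes, 5 were called lower and none higher. mt-Nd1 had a log2FC of -1.31 ± 0.12 (SE, padj = 4.1e-05), mt-Nd2 of -1.19 ± 0.13 (padj = 0.000107), mt-Nd3 of -1.09 ± 0.09 (padj = 3.49e-05), mt-Nd4 of -1.06 ± 0.15 (padj = 0.000355) and mt-Nd6 of -0.98 ± 0.15 (padj = 0.000509). mt-Nd4l (-0.53 ± 0.16, padj = 0.0169) and mt-Nd5 (-0.53 ± 0.16, padj = 0.0146) passed the threshold on padj alone, which 29.9% of all genes passed downwards and 32.7% upwards. The median log2FC was -1.06 over the 7 genes and -0.00 over all genes tested.

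Single libraries decided how the smaller changes were called. All 7 genes were called lower without 6m replicate 4 (2820 of all 16670 genes tested then were lower) and without 24m replicate 2 (2834 of 16637), and without 24m replicate 4 (2615 of 16615) mt-Nd4l was called as well. The padj of mt-Nd4l was 0.0524 without 24m replicate 3 and 0.0512 without 6m replicate 3, whereas that of mt-Nd5 stayed at 0.0470 or below in every such fit. With library totals in place of TMM factors the median of all genes moved to 0.21, and 1747 genes were called lower and 5447 higher in place of 3058 and 4237. In that fit 5 of the 7 genes were called lower, mt-Nd1 at -1.09, whereas mt-Nd5 (-0.31, padj = 0.16) and mt-Nd4l (-0.31, padj = 0.184) did not pass the test.

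Gene length moved with the difference between ages. Of 1324 nuclear genes tested whose exonic length lay within the 297 to 1824 bases of the members, 51.5% were called lower and 5.66% higher, with a median log2FC of -0.70. Among the 15311 longer nuclear genes these shares were 15.3 and 27.0%, with a median of 0.06. Of the short nuclear genes, 52 were also as abundant as the members (a mean of at least 399 CPM), of which 44 (84.6%) were called lower and none higher, with a median of -1.02. The members are thus among short and abundant genes, most of which were lower in the aged libraries.

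When the trend over exonic length was removed from each library with a smoothed offset, none of the 7 genes was called by edgeR, beside 2885 lower and 3568 higher of all 16730 genes, and 3 of the 7 had an unadjusted p under 0.05. The log2FC was then -0.56 for mt-Nd1 (padj = 0.00666) and -0.47 for mt-Nd2 (padj = 0.0145), which passed on padj alone. It was -0.40 for mt-Nd4 (padj = 0.0931), -0.28 for mt-Nd3 (padj = 0.0658) and -0.17 for mt-Nd6 (padj = 0.369), and it turned to 0.02 for mt-Nd5 (padj = 0.95) and 0.29 for mt-Nd4l (padj = 0.284). With the trends over length and GC content both removed, mt-Nd1 alone was called, at -0.61 (padj = 0.000164), beside 2908 lower and 3547 higher of all genes. With the GC trend alone removed, all 7 were called lower, beside 3341 lower and 3882 higher of all 16730 genes. The size of the fall relative to nuclear genes therefore rests on how length is handled, while mt-Nd1 and mt-Nd2 kept a lower level with padj ≤ 0.05 in each of these fits. The members lie at the edge of both trends, since only 0.18 to 8.17% of tested genes were shorter and 0.006 to 8.3% had less GC. At such an edge the smoothed offset rests largely on longer or more GC-rich genes, so these fits are less sure for the members. Whether the length trend arose in the tissue or in the preparation of RNA and libraries was not tested.

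**Figure D2:**
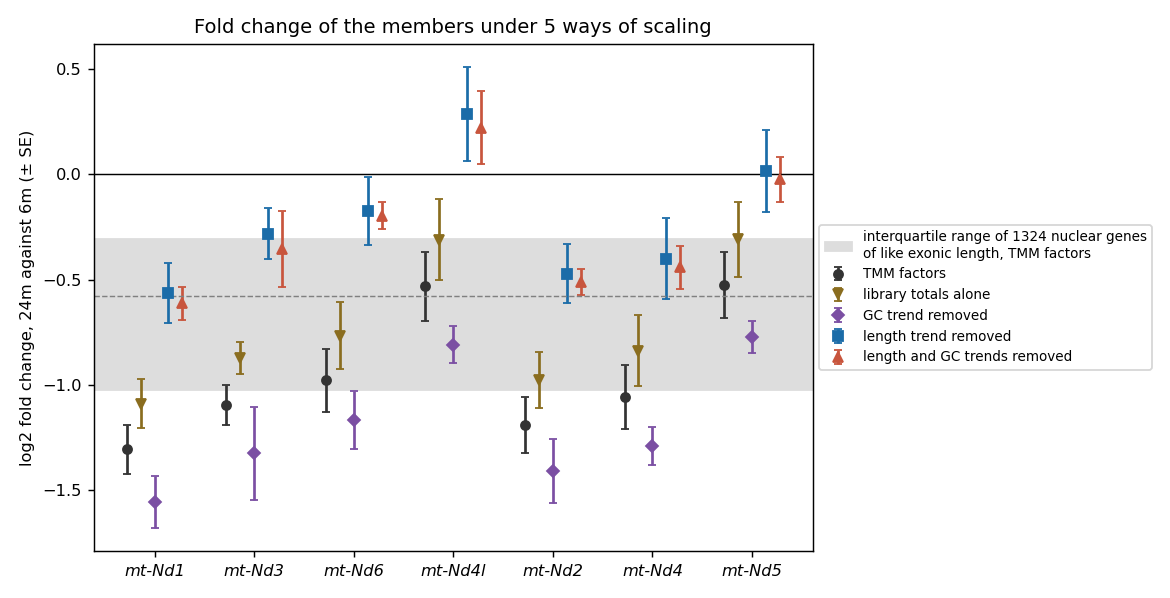
Log2 fold change of 24m against 6m (vertical axis, points with SE) of each gene under 5 ways of scaling, with the interquartile range of 1324 nuclear genes of like length as a grey band and the threshold of -0.58 dashed. Removing the length trend places every gene above the threshold, and mt-Nd4l and mt-Nd5 above 0.

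The order of the members by level per length, in TMM-scaled CPM per kilobase (kb), was led by mt-Nd1 at both ages (4368 ± 473 at 6m and 1768 ± 166 at 24m, SD, n = 4). At 6m it was followed by mt-Nd4 (2529 ± 426) and mt-Nd3 (2427 ± 256), whose order differed between libraries (2 of 4 each way). Then came mt-Nd2 (1862.5 ± 256), mt-Nd4l (1598 ± 277) and mt-Nd6 (1435 ± 287), of which mt-Nd2 was above mt-Nd4l in 4 of 4 libraries and mt-Nd4l above mt-Nd6 in 3 of 4. The lowest level per length was that of mt-Nd5 (629 ± 119), in every library of either age.

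At 24m the genes mt-Nd4 (1216 ± 170), mt-Nd3 (1137 ± 39.7) and mt-Nd4l (1105 ± 206) followed, of which mt-Nd4 was above mt-Nd4l in 4 of 4 libraries and mt-Nd3 above either of them in 2 of 4. mt-Nd2 came next at 817 ± 102, below mt-Nd4l in 4 of 4 aged libraries and above it in 4 of 4 young ones, and then mt-Nd6 (728 ± 69.1) and mt-Nd5 (436 ± 60.4). Levels per length of the shortest genes are less sure, since fragments that reach past a very short gene may have been assigned to a neighbour or to no gene. By plain counts, mt-Nd1 held rank 11 to 19 among all genes at 6m and rank 31 to 48 at 24m.

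To compare the members with each other free of scaling to nuclear genes, the same test was run with the summed counts of the 13 mitochondrially encoded protein genes as library size, and a gene was called in it at padj ≤ 0.05 with no fold threshold. On this scale most nuclear genes lie higher at 24m because the mitochondrial total itself was lower, so that 81.9% of all genes were called higher and 0.406% lower. Of the 7 genes, 2 were called, both higher: mt-Nd5 (0.56 ± 0.15, SE, padj = 0.00305) and mt-Nd4l (0.56 ± 0.16, padj = 0.00581). Because most genes passed in this edgeR fit, the adjustment changed p little (unadjusted 0.00214 for mt-Nd5 and 0.00425 for mt-Nd4l). The other 5 ranged from -0.22 ± 0.11 for mt-Nd1 (padj = 0.0834) to 0.11 ± 0.13 for mt-Nd6 (padj = 0.439). In 11 of 12 alternatives, including each library left out in turn and the other 6 genes as the reference, 2 genes were called, and without 6m replicate 4 mt-Nd1 was called as well (-0.26, padj = 0.027).

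As a share of the mitochondrially encoded counts, mt-Nd5 was at 1.76, 1.91, 1.94 and 1.39% in the young libraries and at 2.13, 2.75, 2.44 and 3.02% in the aged ones. Every aged library was above every young one. The share of mt-Nd4l was 0.673, 0.792, 0.828 and 0.605% at 6m and 0.805, 1.16, 0.997 and 1.30% at 24m, where 24m replicate 1 fell within the young range. The share of mt-Nd1 was 5.94 to 6.74% at 6m and 5.13 to 5.72% at 24m, without overlap, and the shares of mt-Nd2, mt-Nd3, mt-Nd4 and mt-Nd6 overlapped between ages. By the exact two-sided permutation test on each share, p was 0.0286 for mt-Nd5 and mt-Nd1 and 0.0571 for mt-Nd4l, and 0.0743 and 0.124 after adjustment over the 13 mitochondrially encoded genes, so that no share of a member passed it. All 7 together held 19.5 ± 1.59% of mitochondrially encoded counts at 6m and 19.8 ± 1.72% at 24m (SD, n = 4), a difference smaller than the spread within an age.

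The remaining 6 mitochondrially encoded protein genes covered a like range of log2FC with TMM factors. Among them mt-Co2 (-1.33 ± 0.12), mt-Cytb (-1.17 ± 0.13), mt-Co3 (-1.15 ± 0.13), mt-Co1 (-1.08 ± 0.13) and mt-Atp6 (-0.88 ± 0.10) were called lower. mt-Atp8 (-0.47 ± 0.11, padj = 0.00371) missed the fold threshold like mt-Nd4l and mt-Nd5. Relative to the mitochondrial total, mt-Atp8 was the only gene of these 6 with padj ≤ 0.05, at 0.62 ± 0.12 (padj = 0.000273). With 204 bases, mt-Atp8 is shorter than any member, whereas mt-Nd5 is the longest of the 13 genes. The members without a matching nuclear window ranged from -1.31 to -0.53 and those with one from -1.09 to -0.53, and the part of the nuclear copies in these values was not tested.

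**Figure D3:**
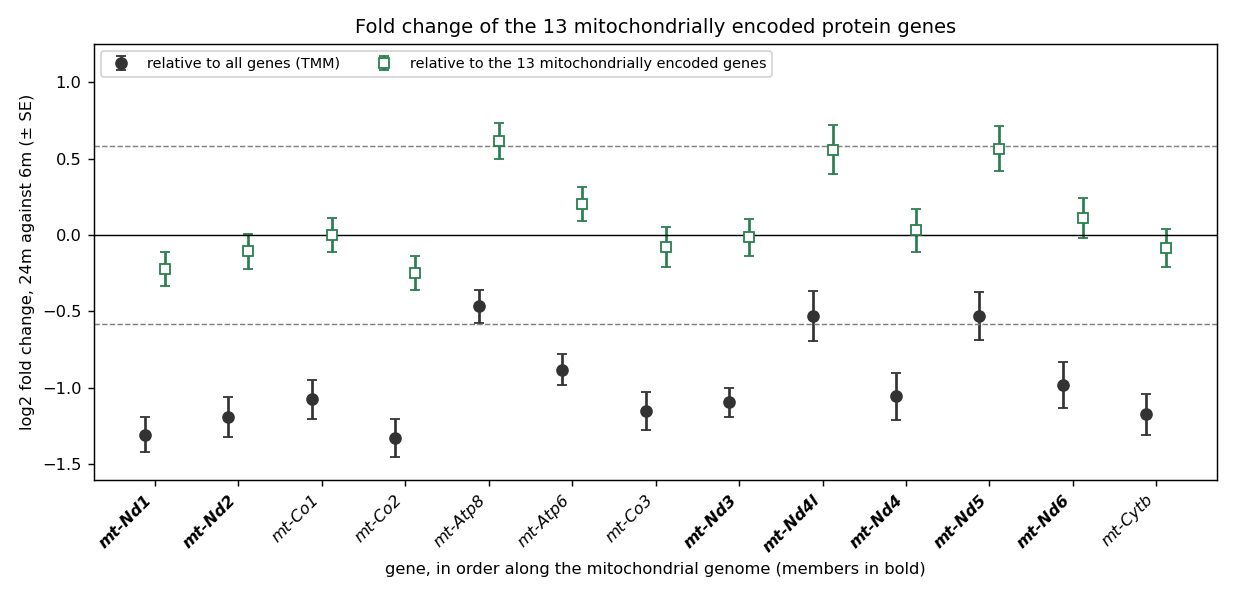
Log2 fold change of 24m against 6m (vertical axis, points with SE) of the 13 mitochondrially encoded protein genes in genome order, with TMM factors (filled) and relative to the mitochondrial total (open), and thresholds of 0.58 either way dashed. All 13 filled points lie below 0, and mt-Atp8, mt-Nd4l and mt-Nd5 stand above the others on both scales.

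Neighbouring genes that share a transcript or overlap were then compared within each library, which needs no scaling for library size. A trend over gene length within a library stays in such a ratio. The ratio of mt-Nd4l to mt-Nd4 counts was 0.128, 0.141, 0.139 and 0.136 at 6m and 0.176, 0.197, 0.196 and 0.211 at 24m. All aged libraries exceeded all young ones, with a log2 difference of 0.52 (SD of the log2 ratio 0.06 at 6m and 0.11 at 24m, n = 4). The exact two-sided permutation test gave p = 0.0286, the smallest that 70 splits allow, and the same value after adjustment over the 2 ratios. In the edgeR fit with the length trend removed, mt-Nd4l was at 0.29 and mt-Nd4 at -0.40. These lay further apart than the -0.53 and -1.06 with TMM factors alone. Both reading frames are on a single messenger RNA, and the coverage along it was not measured. Reads that span the 7 shared bases, and those matching the nuclear copy, may be assigned to either gene or to none, and the part of read assignment in the ratio was not tested.

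The ratio of mt-Nd6 to mt-Nd5 counts was 0.701, 0.624, 0.625 and 0.645 at 6m and 0.572, 0.446, 0.463 and 0.435 at 24m. The aged libraries were lower without overlap, 24m replicate 1 being the nearest to the young ones. The log2 difference was -0.44 (SD of the log2 ratio 0.08 at 6m and 0.18 at 24m, n = 4, exact two-sided permutation p = 0.0286, and 0.0286 adjusted over the 2 ratios). Without any one of the 6m libraries the difference was -0.46 to -0.41 and the exact p 0.0571, and without 24m replicate 1 it was -0.53. In the edgeR fit with the length trend removed, mt-Nd6 was at -0.17 and mt-Nd5 at 0.02. These lay closer together than the -0.98 and -0.53 with TMM factors alone, so the size of this difference also rests on how length is handled. Whether reads were counted by strand is not given in the sources used here. Without strand, reads from the complementary strand of either gene cannot be told apart from its own.

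**Figure D4:**
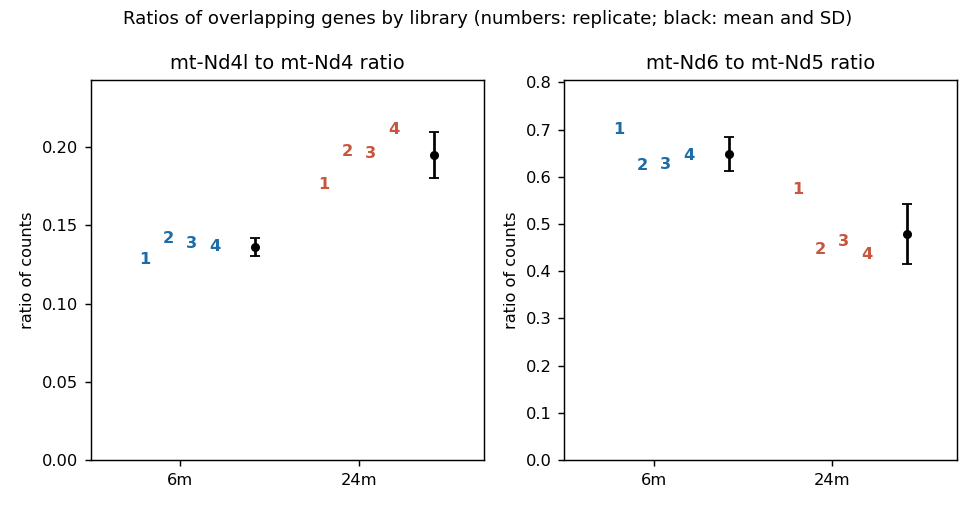
Ratio of counts (vertical axes, starting at 0) of mt-Nd4l to mt-Nd4 and of mt-Nd6 to mt-Nd5 in each library of 6m and 24m, drawn as its replicate number, with the mean and SD in black. The first ratio is higher and the second lower in all 4 aged libraries than in any young one.

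Likeness between members was measured as the root mean square distance of their library profiles, the log2 TMM-scaled CPM after subtracting each gene's mean over 8 libraries. The pair with the closest profiles was mt-Nd4l and mt-Nd5 (0.0733), followed by mt-Nd1 and mt-Nd2 (0.0890) and by mt-Nd4 and mt-Nd6 (0.126). The most distant pair was mt-Nd1 and mt-Nd4l (0.418). The 2 closest genes, mt-Nd4l and mt-Nd5, are not neighbours and differ most in length. Distances are given over 8 libraries that all genes share, without a test.

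Candidates were 9028 nuclear genes at a mean CPM of 10 or more, of which 5 were named for the smallest distance to the mean profile of the members. These were Nsrp1, a nuclear speckle splicing regulator (distance 0.0553, log2FC -0.99), Sltm, a SAFB-like transcription modulator (0.0704, -0.90), Ppig, a peptidyl-prolyl isomerase of splicing speckles (0.0748, -0.96), Fkbp3, an FK506-binding nuclear protein (0.0817, -0.93), and Ggnbp2, gametogenetin-binding protein 2 (0.0879, -0.93). None of them belongs to the lists of mitochondrial genes used here. The median distance of all candidates was 0.496, and 331 candidates were nearer to the mean profile than the furthest member.

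Nuclear genes of the same complex were lower as well. Of 37 nuclear subunit genes, 33 (89.2%) were called lower and none higher at 24m, against 18.3% and 25.3% of all genes, and the median log2FC was -0.97. The 52 short and abundant nuclear genes described above had a like share called lower (84.6%) and a like median (-1.02). Nuclear complex I genes were not taken out of those 52, so the 2 sets may share genes and are not independent. On padj alone 36 of the 37 passed, all downwards, against 29.9% of all genes. Of 17 assembly factors tested, 10 (58.8%) were called lower and none higher, with a median of -0.62. The subunit genes Ndufs4 (-0.80), Ndufs5 (-1.15) and Ndufs6 (-1.25) were also named by the study from these samples, so that their direction is not independent evidence. The lowest values were those of Ndufa2, an accessory subunit of the NADH-oxidising module, with a log2FC of -1.46 ± 0.16 (padj = 0.000112), and Ndufa1, an accessory subunit of the membrane arm, with -1.44 ± 0.16 (padj = 0.000103).

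The highest values were those of the assembly factors Tmem186 (0.25 ± 0.10, padj = 0.0597) and Acad9 (0.22 ± 0.10, padj = 0.0834), which did not pass the test. Ndufs1, chosen here after its values were seen because it was the single nuclear subunit with padj above 0.05, carries iron-sulphur clusters of the matrix arm and had a log2FC of 0.14 ± 0.11 (padj = 0.282). With the length trend removed, 35 of the 54 nuclear complex I genes were called lower and none higher, with a median of -0.69, against 2885 lower and 3568 higher of all 16730 genes, whereas none of the 7 mitochondrially encoded members was called in that fit. With library totals alone, 30 of the 54 were called lower and none higher, against 1747 and 5447 of all genes.

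**Figure D5:**
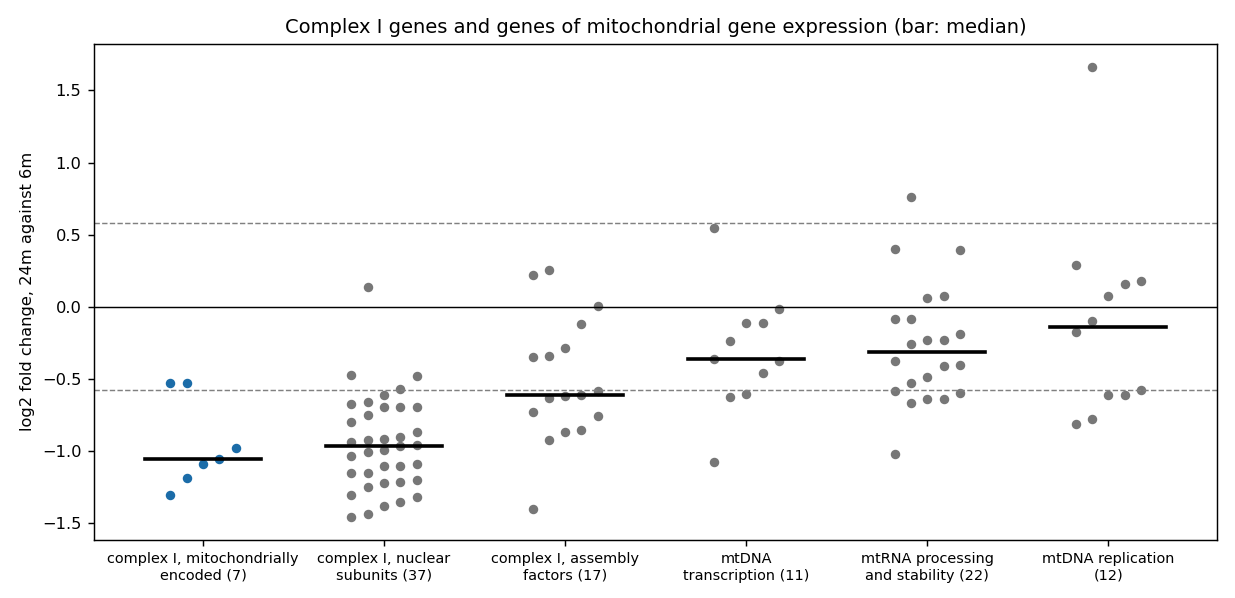
Log2 fold change of 24m against 6m (vertical axis) for each gene of complex I and of mitochondrial gene expression, in 6 lists with their numbers of genes tested, with the median as a bar and thresholds of 0.58 either way dashed. The mitochondrially encoded members and the nuclear subunits lie lowest, with medians of -1.06 and -0.97.

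Among 45 factors that transcribe, process and maintain mitochondrial DNA and RNA, more were lower than higher in the aged brain. Of these, 13 (28.9%) were called lower and 2 (4.44%) higher, against 18.3% and 25.3% of all genes, with a median log2FC of -0.26. On padj alone 22 passed downwards and 6 upwards, where 29.9% and 32.7% of all genes did so. With the length trend removed 19 were called lower and 1 higher, beside 2885 and 3568 of all 16730 genes. With library totals alone, 3 were called lower and 5 higher, beside 1747 and 5447 of all genes, whose median rose to 0.21. Without 24m replicate 4 the counts were 8 and 1, beside 2615 and 3825 of all 16615 genes tested then. Among 11 transcription factors 3 (27.3%) were called lower and none higher. The mitochondrial RNA polymerase Polrmt (-0.11 ± 0.09, padj = 0.289) and Tfam, which packages mitochondrial DNA and starts its transcription (-0.02 ± 0.11, padj = 0.908), did not pass the test. Mrpl12, a mitochondrial ribosomal protein that also binds the polymerase, was the lowest gene of these lists, with a log2FC of -1.08 ± 0.18 (padj = 0.000809).

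Among 22 genes of RNA processing and stability, 6 (27.3%) were called lower and 1 (4.55%) higher, against 18.3% and 25.3% of all genes. Slirp fell (-1.02 ± 0.12, padj = 0.000124), while its partner Lrpprc, with which it stabilises mitochondrial messenger RNAs and promotes their polyadenylation, was at -0.23 ± 0.15 (padj = 0.218). TMM-scaled CPM of Lrpprc were 48.8, 52.4, 54.4 and 53.0 in 6m and 31.4, 45.2, 44.7 and 56.8 in 24m, where the lowest and the highest values of both ages were in aged libraries. Fastk, which is needed for the mt-Nd6 transcript, fell (-0.67 ± 0.15, padj = 0.00312). Grsf1, a protein of mitochondrial RNA granules that binds light-strand transcripts, had 0.39 ± 0.15 (padj = 0.0419), under the fold threshold.

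Pde12, which removes poly(A) tails from mitochondrial RNA, was called higher (0.76 ± 0.25, padj = 0.0228). Its TMM-scaled CPM were 4.999, 5.44, 5.19 and 4.31 in 6m and 4.26, 9.66, 9.44 and 10.4 in 24m, so that 24m replicate 1 did not share the rise. Among 12 genes of replication and maintenance, 4 (33.3%) were called lower and 1 (8.33%) higher, against 18.3% and 25.3% of all genes. The latter was Rrm2b, a ribonucleotide reductase subunit that supplies nucleotides for mitochondrial DNA, with a log2FC of 1.67 ± 0.24 (padj = 0.000331).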

How the data were processed

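Polyadenylated RNA of brain was sequenced from 4 mice of 6m and 4 of 24m. The authors trimmed reads with Trim Galore 0.4.11, aligned them to GRCm39 with HISAT2 2.1.0 (both per the labels and the submitters' processing notes) and counted them per Ensembl gene with featureCounts. The deposited values are whole-number counts, not normalized and not pooled. Strand use and the treatment of reads with several matches are not given in the sources used here.

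Identifiers were matched to the GENCODE vM39 annotation of GRCm39 (newer than the release the authors counted on; 22281 of 22430 matched). The test by edgeR 4.0.16 (R 4.3.3) had TMM factors and a single term for age and ran on the counts as deposited, for genes exceeding 5 counts in 4 or more libraries. Each standard error is the absolute log2FC divided by the root of its F statistic. Nuclear copies were searched with blastn 2.17.0, and windows of the mean read length were compared with the nuclear genome. Ratios were compared by exact permutation over the 70 splits of 8 libraries. DESeq2 1.42.0 on quantile-normalized counts was an alternative, close to the study's approach but without its further normalization by row medians, beside other scalings, limma-voom (limma 3.58.1), other filters and thresholds, thinning, each library left out, replicate numbers as a block and trends over length and GC removed. Scripts were tested on simulated data. P-values measure the spread between animals of 1 cohort.

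Named genes were the 7 members, the other 6 mitochondrially encoded protein genes, the 2 highest and 2 lowest genes by log2FC of the nuclear complex I list and of the mitochondrial gene expression list, Lrpprc, Slirp, Grsf1, Fastk, Tfam and Polrmt, and the 5 nuclear genes with the nearest profile. Members, lists and tests were chosen with earlier results of these data known. Coa1, of the assembly factor list, was not analysed here. Protein sequences were not used here.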

Additional observations from a re-analysis of the deposited data

Results flagged for a closer look

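The highest or lowest of 4 libraries was compared with the others by Dixon's ratio in 36 groups, where chance gives about 1 such result in 20 groups, and 4 stood out. In 6m replicate 4, mt-Nd5 was at 824 TMM-scaled CPM against 1234 to 1281 in the other young libraries. In the same library mt-Nd6 took 0.896% of mitochondrially encoded counts against 1.19 to 1.23%, and the 7 genes together took 0.913% of all counts against 1.26 to 1.32%. In 24m replicate 3, mt-Nd2 took 2.48% of mitochondrially encoded counts against 2.80 to 2.85% in the other aged libraries. These values share libraries and denominators and are not independent, and no cause was tested.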

How the results depend on the processing

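The count of 5 members called was 4 to 7 in 22 alternatives, 0 once the length trend was taken out, and 1 once length and GC trends were both taken out, also with the replicate block. With the length trend removed mt-Nd5 turned to 0.0156, and mt-Nd4l turned to 0.287, to 0.221 with GC as well and to 0.192 with the replicate block added. Nuclear complex I genes called went from 43 to 18 at an absolute log2FC of at least 1. Mitochondrial gene expression genes called went from 15 to 8 with library totals alone, 28 without a fold threshold and 3 at an absolute log2FC of at least 1, and ranged from 9 to 16 with 1 library left out. The mt-Nd6 to mt-Nd5 difference ranged from -0.532 to -0.401 with 1 library left out, and the exact p was 0.0571 without any one of the 6m libraries. With length and GC trends both removed in edgeR, mt-Nd6 (-0.198) and mt-Nd5 (-0.0244) lay closer together than in the main fit. Quantile normalization gives every rank the same value in each library, which limits what it can show for the most abundant genes, and 5 members were called with it.

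Same-numbered libraries of the 2 ages deviated together with correlations of 0.271, 0.143, 0.0778 and -0.348, so the numbers were not taken as pairs. With the replicate block in edgeR, 3130 genes were lower and 4112 higher, and the 5 calls among members held. In an exact sign-flip permutation over the 4 pairs (replicate block), the ratio differences were 0.516 and -0.444 with p = 0.125, the smallest that 4 pairs allow. Depth was no limit: thinning to 63460940 counts left each call among members as it was.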
